A study of Mus musculus with 2 samples.

Results

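T cell receptors are built from alpha and beta chains or from gamma and delta chains, and the constant genes of these chains were followed here in single cells of the mouse small intestine. The 8 genes, chosen by name, were the constant genes Trac (alpha), Trbc1 and Trbc2 (beta), Trdc (delta) and Trgc1 and Trgc2 (gamma), and the variable segments Trgv7 (gamma) and Trdv4 (delta). They were 8 of 56980 genes in the count matrices. The names Tcrg-C1 and Tcrg-C2 are written Trgc1 and Trgc2 in the matrices, so 6 of the 8 were found by symbol and 2 by gene ID. The study title names CB001 compounds, simulated microgravity and radiation. It comprised 1 library labelled model and 1 labelled control, each a droplet (10x Genomics) library of dissociated small intestine cleared of mesentery and Peyer's patches. The labels give no strain, age, sex or number of mice and no dose of any exposure for either library, and no compound-treated library was analysed here. With 1 library a group no test between the groups exists, and every interval below is a 95% interval for counting error only.

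A cell that makes a working T cell receptor carries either an alpha-beta or a gamma-delta pair, held at the surface by the CD3 proteins encoded by Cd3e, Cd3d and Cd3g. The delta genes lie inside the alpha locus, so that joining of alpha segments removes the delta genes from that chromosome, while germline transcripts of unjoined constant genes can be made in cells that do not use them. The gut epithelium of mice holds many gamma-delta T cells, and the gamma variable segment Trgv7, which lies in the gene cluster of Trgc1, is typical of them.

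Trac, Trdc and Trdv4 lie on chromosome 14, Trbc1 and Trbc2 on chromosome 6, and Trgc1, Trgc2 and Trgv7 on chromosome 13. All 8 matched the GENCODE vM21 transcripts of GRCm38 by gene ID. The matrices are of another build, so no coordinates are given. The paired constant genes are shown first because their likeness limits how well a read can be given to one of them. Trbc1 and Trbc2 were the same at 374 of 375 bases of exon 1 and at 495 of 518 coding bases in all, and shared an unbroken run of 259 bases. The 143 coding bases after exon 1 carry 22 of the 23 coding differences, shown in capitals.
Trbc1: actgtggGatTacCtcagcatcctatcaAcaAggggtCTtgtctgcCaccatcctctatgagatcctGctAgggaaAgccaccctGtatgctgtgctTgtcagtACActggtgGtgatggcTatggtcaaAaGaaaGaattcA
Trbc2: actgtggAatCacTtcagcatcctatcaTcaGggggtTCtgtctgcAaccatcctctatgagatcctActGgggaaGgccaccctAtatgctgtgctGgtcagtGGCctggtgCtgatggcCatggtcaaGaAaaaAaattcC
After the stop codon, 112 of 224 aligned positions of Trbc1 and Trbc2 were the same. Trgc1 and Trgc2 were the same at 321 of 330 bases of exon 1, at 487 of 515 aligned coding positions and, unlike the beta pair, at 387 of 414 aligned positions after the stop. Bases 100 to 199 of exon 1 hold 5 of the 9 differences, in capitals.
Trgc1: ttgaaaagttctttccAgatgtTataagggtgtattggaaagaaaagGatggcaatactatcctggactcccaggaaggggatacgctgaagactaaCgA
Trgc2: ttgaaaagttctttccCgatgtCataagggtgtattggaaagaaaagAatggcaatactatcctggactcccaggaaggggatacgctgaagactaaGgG
Exon 2, which encodes part of the connecting peptide, has 45 bases in Trgc1 and 30 in Trgc2. The capitals mark the 15 bases that Trgc2 lacks.
Trgc1: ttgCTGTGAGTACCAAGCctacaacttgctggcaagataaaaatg
Trgc2: ttgctacaacttgctggcaagataaaaatg
Trac and Trdc were unlike each other. Their transcripts shared no exact run longer than 12 bases, and the first 60 coding bases of each are shown.
Trac: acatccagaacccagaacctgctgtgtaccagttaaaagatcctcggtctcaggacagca
Trdc: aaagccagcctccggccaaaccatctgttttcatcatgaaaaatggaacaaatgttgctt
Values that set Trbc1 against Trbc2, or Trgc1 against Trgc2, are therefore uncertain, whereas Trac and Trdc have no long stretch in common.

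The matrices held 11468 barcodes and 76701215 unique molecular identifiers (UMIs) in the model library and 10259 barcodes and 61370270 UMIs in the control library. After filtering, 7913 model cells (median 3761 UMIs) and 7329 control cells (median 3636 UMIs) were kept, and 12 kept barcodes occurred in both libraries. The median mitochondrial share was 5.38% in kept model cells and 10.8% in kept control cells. A cell was called CD3-positive when Cd3e, Cd3d and Cd3g summed to at least 1 UMI. There were 3027 such cells in the model library, 38.3% of kept cells (37.2 to 39.3%), and 2112 in the control library, 28.8% (27.8 to 29.9%), a ratio of 1.33 (1.27 to 1.39). Their median depth was 2882 and 2852.5 UMIs, but the median CD3 sum was 11 UMIs in model cells and 6 in control cells. Of the CD3-positive cells, 77.5% in the model library and 59.2% in the control library lay in clusters named T cell-like. The clusters were made without receptor genes, but the T cell markers that named them include the CD3 genes, Trac and Trbc2. The share in clusters left unnamed was 9.98% and 24.8%, and 4.10% and 5.68% were enterocyte-like. The CD3-positive control cells thus held a smaller share with T cell profiles, and the part of this in the shares below was not tested. At least 1 of the 8 genes was present in 84.0% of model and 72.1% of control CD3-positive cells.

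The 6 constant genes were each carried by a larger share of all CD3-positive cells in the model library. The widest gaps were those of Trac, Trbc2 and Trgc2. In T cell-like CD3-positive cells alone, this direction held only for Trac and Trbc2. Trac, the alpha constant gene, had at least 1 UMI in 53.8% of model cells (1629 of 3027) and 40.6% of control cells (857 of 2112). Trbc2 was present in 67.0% and 52.8%, and Trbc1 in 37.9% and 33.9%. Trdc was present in 40.8% of model and 38.4% of control cells, Trgc1 in 42.6% and 39.2%, and Trgc2 in 50.1% and 40.3%. In T cell-like CD3-positive cells Trac was in 63.7% of model and 59.6% of control cells, and Trbc2 in 79.0% and 76.2%. There Trbc1 was in 45.5% and 49.2%, Trdc in 48.1% and 55.4%, Trgc1 in 50.4% and 56.8%, and Trgc2 in 59.4% and 62.0%. Over all CD3-positive cells the variable segments were rare, with Trgv7 in 5.85% and 5.87% and Trdv4 in 0.264% (8 cells) and 0.568% (12 cells). Of the T cell-like CD3-positive cells, 7.12% in the model and 9.43% in the control library had Trgv7. In enterocyte-like cells, which should make none of these RNAs, the shares were 3.10% and 1.48% for Trac, 2.54% and 1.92% for Trdc, and 0 of 1259 and 0 of 1822 cells for Trgv7 and Trdv4, at median depths of 7158 and 4269 UMIs. The counting intervals of the 6 constant genes and Trgv7 lay above this background in both libraries. For Trdv4 the model share (0.114 to 0.520%) overlapped what 0 of 1259 enterocyte-like cells allows (up to 0.293%), so it was not told apart from background there, and 1 of 320 crypt-like control cells also carried it.

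**Figure D1:**
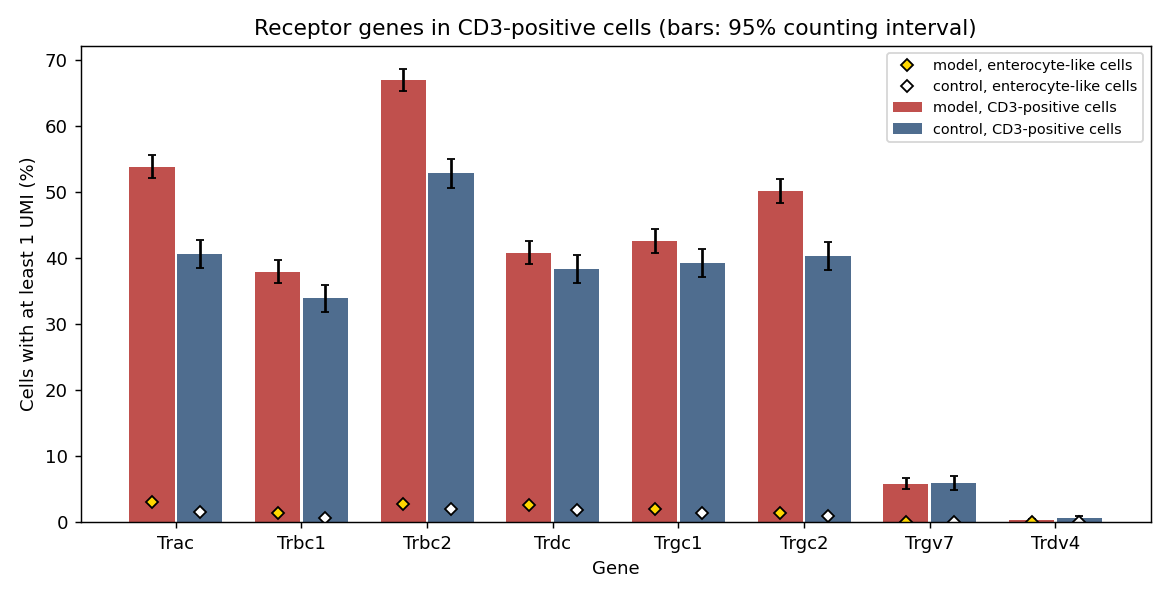
Share of CD3-positive cells with at least 1 UMI of each gene (vertical axis, %), with the model library left of the control library, 95% counting intervals as error bars and diamonds for enterocyte-like cells. Trac, at 53.8% and 40.6%, and Trbc2, at 67.0% and 52.8%, show the widest gaps between the libraries, and Trgv7 stands at 5.85% and 5.87%.

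As levels, the 7 genes with enough UMIs differed by less than 1.5 times between the libraries. Levels are given as CPM, the UMIs of a gene scaled to the same total of UMIs in each group of cells. Summed over CD3-positive cells, Trac had 233 CPM in the model library and 207 CPM in the control library, a ratio of 1.12 (1.06 to 1.18). Trbc2 had 435 and 434 CPM (ratio 1.00, 0.967 to 1.04), and Trbc1 had 185 and 221 (0.837, 0.794 to 0.884). Trdc stood at 279 and 307 CPM (0.910, 0.870 to 0.952), Trgc1 at 253 and 294.5 (0.860, 0.821 to 0.9004) and Trgc2 at 207 and 207 (1.00, 0.951 to 1.06). Trgv7 had 204 and 139 UMIs in all (ratio 0.919, 0.737 to 1.15). Of the 7 genes with at least 50 UMIs over both libraries, 0 passed a ratio of 1.5 in either direction, against 2.55% of 12937 genes that were higher and 4.93% that were lower by that much. Trdv4, with 8 model and 16 control UMIs (ratio 0.313, 0.116 to 0.776), was below that count, and no call was made on it. When each cell was thinned to 1000 UMIs, which left out 204 model and 317 control cells, Trac was in 32.6% of model and 24.3% of control cells. Trdc was then in 29.4% and 29.6%, and Trgc1 in 27.6% and 29.0%, so that their shares were no longer larger in the model library. Thinning gave each cell that was left the same weight and turned the direction of 3 level ratios. They were then 1.08 (0.975 to 1.20) for Trbc1, 1.024 (0.944 to 1.11) for Trdc and 1.029 (0.942 to 1.12) for Trgc1. The ratio of Trac was then 1.386 (1.26 to 1.53). Those of Trbc2 and Trgc2, both 1.00 before thinning, were 1.209 (1.13 to 1.30) and 1.195 (1.08 to 1.32). The sums over CD3-positive cells include cells outside the lymphocyte clusters. In T cell-like and NK or innate lymphoid-like clusters alone, Trac had 547 and 493 CPM, a ratio of 1.11 (1.05 to 1.17).

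Most cells with delta RNA also carried alpha or beta RNA. Each CD3-positive cell was sorted by which chains had at least 1 UMI. Cells with alpha or beta but no delta were 41.5% of model cells (1255) and 30.2% of control cells (637), a ratio of 1.37 (1.27 to 1.49). Cells with delta and alpha or beta together were 37.3% (1129) and 33.7% (711), a ratio of 1.11 (1.03 to 1.19). Cells with delta and neither alpha nor beta were few, at 3.47% (105) and 4.69% (99), and shallow, with median depths of 1864 and 1466 UMIs. Cells with none of alpha, beta or delta were 17.8% (538) and 31.5% (665). Their median CD3 sum was 1 UMI in both libraries. The commonest full combination, alpha with beta, gamma and delta, made up 18.3% of model and 17.4% of control cells, and alpha with beta and gamma without delta 18.3% and 11.6%. Thinning to 1000 UMIs gave 44.7% and 36.0% for alpha or beta without delta, and 21.3% and 20.8% for both. It gave 8.11% and 8.80% for delta without alpha or beta, and 26.0% and 34.3% for none of the 3. The ratio for cells with both kinds of chain was below 1 when T cell-like and NK or innate lymphoid-like clusters alone were used (0.8737), and the ratio for delta without alpha or beta passed 1 when a chain had to have 2 UMIs (1.402, at 7.04% of model and 5.02% of control cells), so that neither direction holds under every setting.

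**Figure D2:**
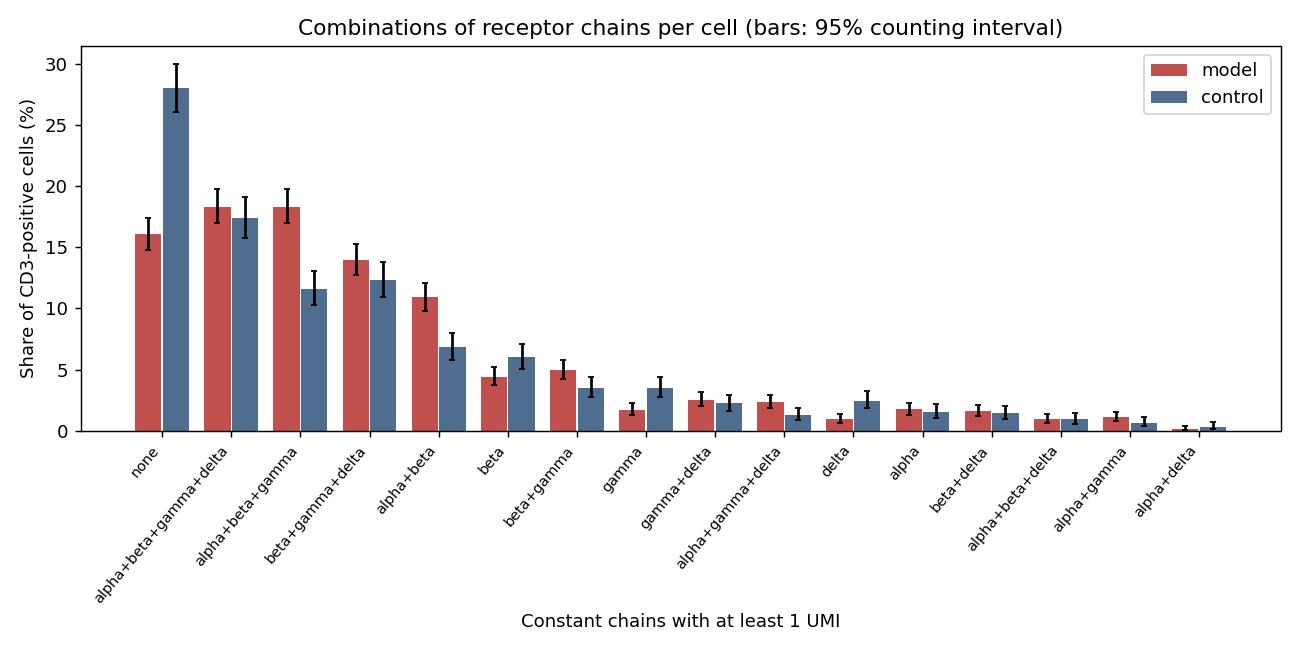
Share of CD3-positive cells (vertical axis, %) with each of the 16 combinations of alpha, beta, gamma and delta constant genes at 1 UMI or more (horizontal axis), model left of control, with 95% counting intervals. Cells with no chain are 16.1% of model and 28.0% of control cells, and the combination of all chains is at 18.3% and 17.4%.

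In cells with both kinds of chain, delta often made up much of the receptor RNA. Among cells with at least 5 alpha, beta and delta UMIs together (1707 model and 931 control cells), delta made up 20 to 80% of these UMIs in 45.8% of model cells (43.4 to 48.2%) and 53.2% of control cells (49.9 to 56.4%). Alpha or beta UMIs alone were seen in 45.1% and 36.0%, a delta share of under 20% but above 0 in 5.33% and 8.16%, and delta UMIs alone in 0.879% (15 cells) and 0.537% (5 cells). The distribution therefore had a peak at 0 and a broad middle, with few cells at the delta end. Over all CD3-positive cells, Trdc was found in 40.4% of Trac-positive and 41.2% of Trac-negative cells in the model library, and in 49.1% and 31.0% in the control library, where Trac-negative cells were shallower (median 3421 and 1961 UMIs). In T cell-like cells alone the control direction turned: Trac was in 40.6 to 62.3% of model cells in the bins with Trdc and 72.3% of those without, and in 37.2 to 65.3% and 65.8% of control cells. Over all CD3-positive cells, a beta gene was present in 89.99% of Trac-positive and 54.0% of Trac-negative model cells, and in 90.5% and 39.1% of control cells. Trdc also went with the beta genes there, in 47.4% of beta-positive and 22.5% of beta-negative model cells. In control cells these shares were 53.4% and 15.7%. The beta-positive and beta-negative cells had median depths of 2911 and 2594.5 UMIs in the model library, and of 3231 and 1444 in the control library.

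**Figure D3:**
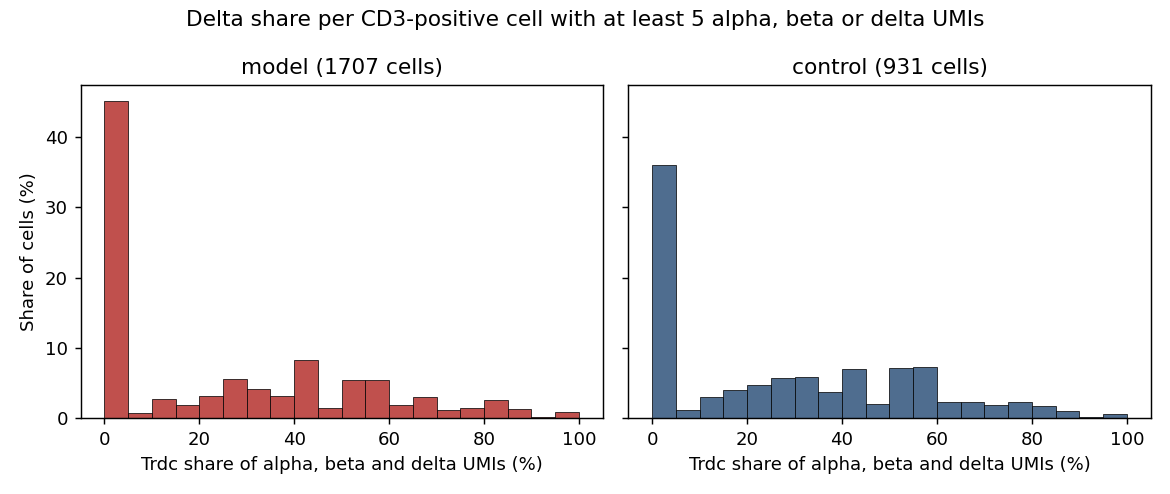
Distribution of the Trdc share of alpha, beta and delta UMIs (horizontal axis, %) over CD3-positive cells with at least 5 such UMIs, as a share of those cells (vertical axis, %), model left and control right. The first bar is the cells at or near 0, and the range from 20 to 80% holds 45.8% of model and 53.2% of control cells.

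Cells with delta RNA had less alpha RNA than cells without it, though not none. In T cell-like CD3-positive cells Trac had 753 CPM in the 1216 model cells without Trdc, and 323, 368, 339 and 348 CPM in model cells with 1, 2 to 3, 4 to 7 and 8 or more Trdc UMIs. The control library gave 721 CPM without Trdc and 310, 310, 348 and 367 in the same bins. The level of Trac thus stood apart between cells without and with Trdc and varied little among the bins with Trdc. Trbc2 showed a smaller gap, at 691 to 936 CPM in model cells with Trdc against 1273 without, and 588 to 892 against 1297 in control cells. Trbc1 showed none in the model library, at 422 to 530 CPM with Trdc against 426 without, and stood at 374 to 525 against 609 in the control library. The variable segments that alpha-beta cells must join were rarer still in cells with delta. At least 1 UMI of an alpha (Trav) segment was seen in 1.95% of model cells with both kinds of chain (22 of 1129). In model cells with alpha or beta and no delta the share was 6.22% (78 of 1255), and the control shares were 2.67% and 6.75%. For beta (Trbv) segments the shares were 2.57% and 7.89% in the model library and 2.81% and 9.73% in the control library.

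**Figure D4:**
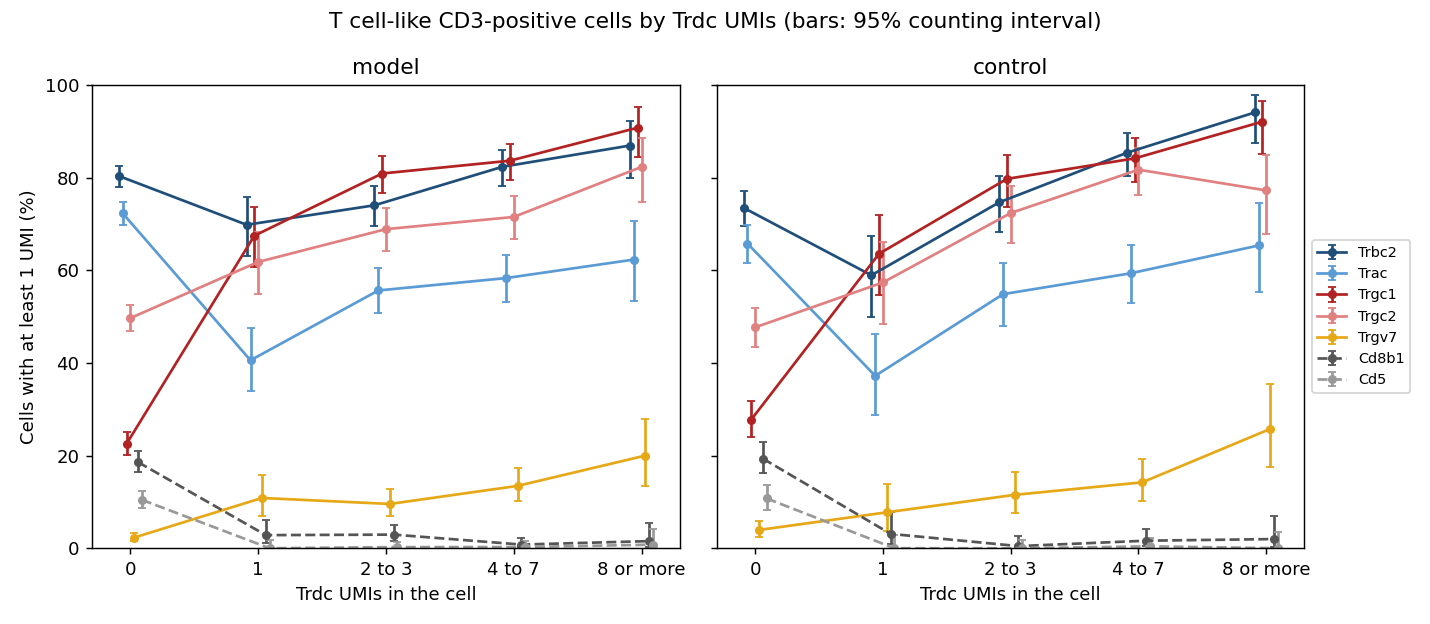
Share of T cell-like CD3-positive cells with at least 1 UMI of each gene (vertical axis, %) by the number of Trdc UMIs in the cell (horizontal axis), model left and control right, with 95% counting intervals. Trgc1 stands at 22.5% and 27.8% in cells without Trdc and at 90.8% and 92.1% in those with 8 or more Trdc UMIs, while Cd8b1 stands at 18.6% and 19.4% without Trdc and at 1.54% and 1.98% with 8 or more.

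Among the gamma genes, the gap between cells with and without Trdc was wider for Trgc1 than for Trgc2. Trgc1 was present in 79.4% of Trdc-positive and 17.2% of Trdc-negative model cells, and in 76.0% and 16.3% of control cells. Trgc2 was present in 68.9% and 37.1% of those model cells and in 68.4% and 22.8% of control cells. The Trdc-positive and Trdc-negative cells had median depths of 2862 and 2898 UMIs in the model library, and of 3247.5 and 2209 UMIs in the control library. In T cell-like cells the level of Trgc1 was 908 to 1146 CPM in model cells with Trdc and 179 without, and 859 to 1053 and 245 in control cells. For Trgc2 the levels were 537 to 566 and 422 CPM in model cells, and 518 to 600 and 388 in control cells. A gamma constant gene of some kind was thus also frequent without delta, in 44.1% of Trdc-negative model and 31.3% of Trdc-negative control cells.

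Trgv7, the gut-typical gamma segment, was mostly seen in cells with Trgc1 and Trdc. Of its 177 positive model cells 91.5% had Trgc1 (86.4 to 95.2%) and 84.2% had Trdc, and of its 124 positive control cells 92.7% had Trgc1 and 81.5% had Trdc. It was found in 12.1% of Trdc-positive and 1.56% of Trdc-negative model cells, and in 12.5% and 1.77% of control cells. It was in 20% of model and 25.7% of control T cell-like cells with 8 or more Trdc UMIs, against 2.30% and 3.94% of those without Trdc. In the cells with 8 or more, depth was also higher (medians of 3389.5 and 4538 UMIs, against 2615.5 and 2756.5 without Trdc). The cells with Trgv7 were no exception to the mixture of chains, since 91.5% of them in the model and 96.8% in the control library had an alpha or beta UMI. Trdv4, a delta variable segment, was in 8 model and 12 control cells, of which 6 and 12 had Trdc. Trgv7 and Trdv4 shared 0 model cells and 1 control cell. Of the 36 gamma and delta segments in the matrices, 10 had at least 50 UMIs. Trgc4, another gamma constant gene, was in 37.4% of model and 33.4% of control CD3-positive cells and Trgv2 in 30.03% and 26.8%. The joining segments Trgj1 to Trgj4 were at 0 in both libraries.

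The 2 copies of each paired gene usually occurred together. Of cells with at least 3 beta UMIs, 57.4% in the model library (867 of 1511) and 62.8% in the control library (520 of 828) had both Trbc1 and Trbc2, 38.6% and 33.0% had Trbc2 alone, and 3.97% and 4.23% had Trbc1 alone. For the gamma pair, 67.9% of model cells and 74.0% of control cells with at least 3 UMIs had both, 15.1% and 13.96% had Trgc1 alone, and 16.9% and 12.0% had Trgc2 alone. These splits rest on the sequences above, which are the same over long runs, and how reads shared by both copies were counted is not given in the sources used here.

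Of the genes of conventional T cells, 13 of 24 tested were lower in cells with delta RNA. Cells with both kinds of chain were set against cells with alpha or beta and no delta within each library. Their median depths were 2916 and 2845 UMIs in the model library and 3398 and 2852 in the control library. Their median CD3 sums were 16 and 12 UMIs in the model library and 17 and 8 in the control library. The part of this difference in the ratios and shares of the 2 classes was not tested. The classes also differed in make-up. Of the 1255 model and 637 control cells without delta, 266 and 95 lay in the lymphocyte subcluster led by Cd40lg, Cd4 and Cd28. In the subcluster led by Klra7, Klra6 and Klra1, 131 model cells had 1 kind of chain, and in 1 of them it was delta. The part of these subclusters was not tested either. A gene was called where it was at least 2 times higher or lower in both libraries. That held for 0.164% of 11604 genes on the higher side and 1.55% on the lower side. In this list 0 were higher, with median log2 ratios of -1.35 in the model and -1.68 in the control library against -0.04 and -0.03 over all genes. Cd5, a damper of receptor signalling, had 12 UMIs in 3 cells with both kinds of chain and 226 UMIs in 131 cells without delta in the model library, and 1 UMI in 1 cell and 123 UMIs in 64 cells in the control library. Of those 12 UMIs, 10 were in 1 cell. Cd28, the costimulatory receptor, was 11.5 times lower in the model and 17.6 times lower in the control library, Cd2 9.80 and 11.3 times lower, and Cd6 5.22 and 8.76 times lower. Icos, Cd40lg, Tnfrsf4, Ly6a, Ly6c2, Lef1, S1pr1, Pdcd1 and Thy1 were the other 9. The 5 genes called lower among 36 of CD3 and proximal signalling were Cd5, Cd6, Cd28, Icos and Ubash3a, of which 4 are shared with that list. The list's median log2 ratio was 0.30 and 0.23.

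Of the 3 coreceptor genes 2 were called lower with delta, Cd8b1 and Cd4, while Cd8a was in a larger share of cells with delta. Cd8b1, the beta chain of CD8, was in 2.30% of model cells with both kinds of chain and 18.6% of those without delta, and in 1.83% and 18.2% of control cells. Cd4 was in 0.177% and 6.06% of these model cells and 0.281% and 5.81% of these control cells. Cd8a, the alpha chain, was in 87.4% and 75.6% of model and 81.7% and 68.8% of control cells, so that Cd8a without Cd8b1 or Cd4 marked 85.0% of model cells with both kinds of chain and 79.6% of control ones, against 59.6% and 52.1% without delta. Enterocyte-like cells had Cd8a in 3.18% (model) and 2.09% (control).

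Of 26 natural intraepithelial lymphocyte genes 0 were called higher and 4 lower with delta, and their median log2 ratios were -0.13 and -0.06 against -0.04 and -0.03 over all genes. The next 3 genes, chosen after their values were seen, were in a larger share of cells with both kinds of chain than of cells without delta. Cd7 was in 94.2% of model cells with both kinds of chain and 75.1% without delta, and in 93.0% and 65.9% of control cells. Itgae, the integrin that holds T cells in the epithelium, was in 86.1% and 67.4% of model and 87.2% and 61.9% of control cells, and Fcer1g, a signalling subunit, in 85.1% and 60.4% and in 77.6% and 48.2%. The 4 lower genes were Klra1, Klra6 and Klra7, which encode Ly49 receptors, and Tmem176a. Klra7 was in 7 of 1129 and 138 of 1255 model cells and in 2 of 711 and 26 of 637 control cells. Of 15 cytotoxic genes 1 was called, Ifng, at 20 and 110 CPM in the model library and 18 and 135 in the control library. Gzma was 1.44 and 1.51 times higher with delta, and was also in 35.6% of model and 24.0% of control enterocyte-like cells. Of 7 tested genes linked to type 17 gamma-delta cells, 4 were lower and 0 higher: Il17a, at 9 and 163 UMIs in model cells and 3 and 94 in control cells, Il22, Maf and Ccr2. The Il17a UMIs came from few cells, 1 and 7 in the model library and 3 and 9 in the control library. Among the gamma and delta segments, 7 of 10 tested were higher, of which Trdc chose the cells. Trgc1 was 7.40 (model) and 4.68 (control) times higher and Trgv7 6.87 and 3.93 times higher, while Trgc2 stood at 1.63 and 1.76. Of the 17 homing and 10 cell cycle genes tested, 0 were called. Epithelial markers summed to 3959 CPM with both kinds of chain and 5650 without delta in the model library, and to 4510 and 8203 in the control library, and their part in these ratios was not tested.

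The few cells with delta and no alpha or beta differed from this, with more signalling genes called lower (9 against 5) and 0 higher. Against cells with alpha or beta and no delta, 1.2% of 10454 genes were at least 2 times higher in both libraries and 2.43% lower. Of the 36 signalling genes 9 were lower (median log2 ratios -0.87 and -0.90), of 24 conventional genes 10 and of 25 natural intraepithelial genes 8. Trgc1 was in 56.2% of these 105 model cells and 36.4% of these 99 control cells. Itgae was in 62.9% and 46.5% of them and Fcer1g in 55.2% and 34.3%. Both were below the shares in cells with alpha or beta and no delta (67.4% and 61.9%, and 60.4% and 48.2%). Cd7 was in 78.1% and 61.6%, against 75.1% and 65.9%. Epithelial markers summed to 9787 and 5650 CPM in the model library and to 12650 and 8203 in the control library, and B and plasma cell markers to 11106 and 4417 and to 10621 and 5097. In these shallow cells the part of RNA from other cells was not tested.

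Across named cell types the levels of Trac, Trdc and Trgv7 were highest in T cell-like cells, which Trac and Trbc2 helped to name. Trdc had 654 CPM in the 2404 T cell-like model cells and 720 in the 1292 control ones, against 89.0 and 163 CPM in the 63 model and 37 control NK or innate lymphoid-like cells (14 and 20 UMIs). Outside these lymphocytes, the highest of 13 other named types with at least 20 model cells reached 26.4 CPM, and the highest of 14 in the control library 50.9. Trac stood at 545 and 488 CPM in T cell-like cells, at 44.5 and 49.0 in NK or innate lymphoid-like cells (7 and 6 UMIs) and at no more than 30.8 and 41.5 in the other types, and Trgv7 at 28.3 and 31.5 in T cell-like cells, 0 and 0 in NK or innate lymphoid-like cells and no more than 0.723 and 2.03 in the others. Paneth-like control cells (84 cells) carried Trgc1 in 26.2% and Trdc in 20.2%, and 39 of these 84 cells were CD3-positive. NK or innate lymphoid-like cells carried some constant genes without others. In those with 0 CD3 UMIs, 53 in the model and 33 in the control library, Trbc2 was present in 37.7% (24.8 to 52.1%) and 69.7% (51.3 to 84.4%), Trbc1 in 28.3% and 39.4% and Trgc1 in 39.6% and 33.3%. Trac was in 0 and 1 of these cells, Trdc in 1 and 0, Trgv7 in 0 and 0, and Trgc2 in 0 and 0, which allows a share of Trgc2-positive cells of up to 6.72% and 10.6%. In these cells Trgc1 had 49 and 18 UMIs, and Trgc2 had 0 and 0.

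Within the lymphocytes, clustered again without receptor genes, 2 subclusters stood out among the T cells. Subcluster 4, led by Cd40lg, Cd4 and Cd28 (299 model and 104 control cells), had the lowest delta and gamma levels of the T cell subclusters, with Trdc at 64.1 and 70.9, Trgc1 at 26.7 and 47.3 and Trgc2 at 81.5 and 118 CPM, beside Trac at 712 and 767. Subcluster 10, led by Klra7, Klra6 and Klra1 (146 model and 19 control cells), had Trac at 890, Trdc at 145, Trgc1 at 312 and Trgc2 at 568 CPM in the model library. The control library had under 20 cells there and gets no value. In the 9 other T cell subclusters Trdc ran from 320 to 980 CPM in the model and from 446 to 1115 in the control library, Trgc1 from 335 to 863 and from 481 to 954, and Trac from 243 to 611 and from 253 to 609. Epithelial genes are among those leading subclusters 5 and 8 of these. Subcluster 11, led by genes that include Il22 and Klrb1b (58 and 27 cells), had Trgc1 at 374 and 300 CPM and Trgc2 at 7.05 and 12.5, from 1 UMI each.

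**Figure D5:**
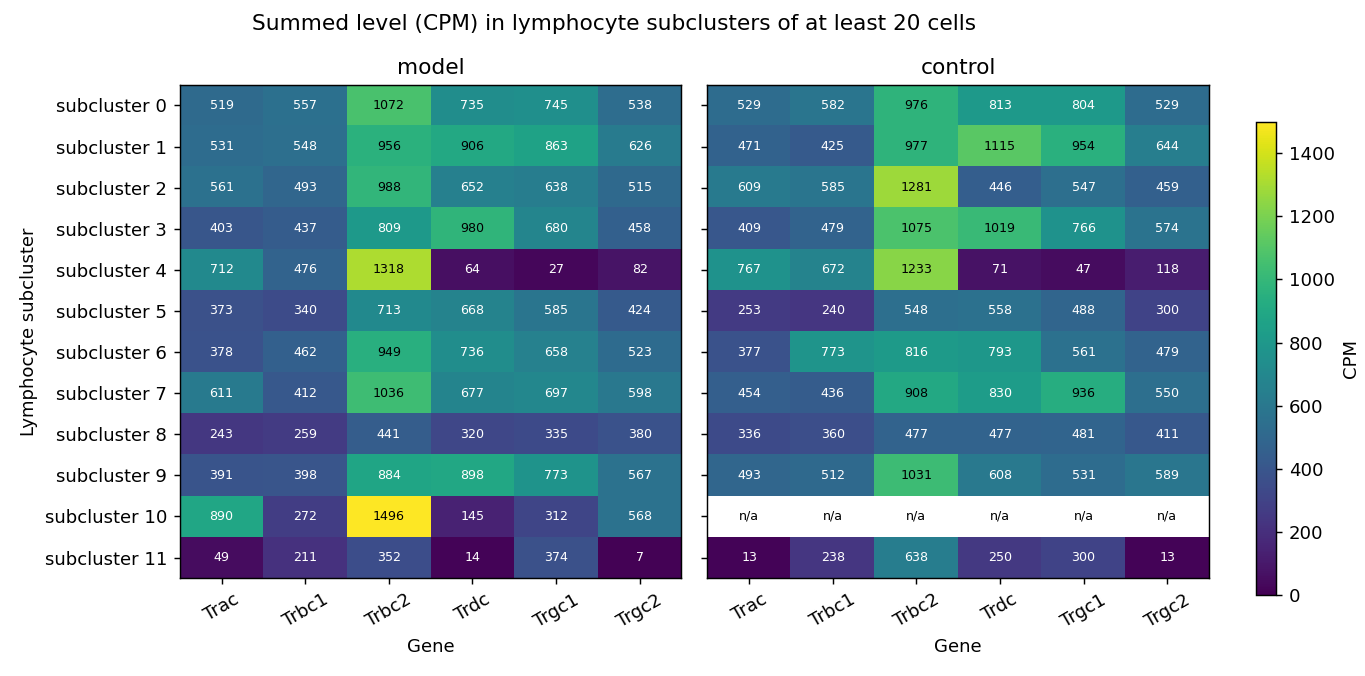
Summed CPM (colour and printed value) of the 6 constant genes (columns) in lymphocyte subclusters of at least 20 cells (rows), model left and control right, n/a where a library had fewer cells. Subcluster 4 is dark for Trdc at 64.1 and 70.9 and bright for Trbc2 at 1318 and 1233 CPM.

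Between the libraries, 0 of the genes of receptor signalling passed 1.5-fold in CD3-positive cells. The shares of all genes past 1.5-fold were 2.55% higher and 4.93% lower. Of 36 signalling genes 0 were higher and 0 lower in the model library, with a median log2 ratio of 0.01 against 0.00 over all genes, and of the 3 coreceptor genes 0 were called. Of 10 gamma and delta segments tested, Trdv2-2 was lower, with 34 model and 45 control UMIs (ratio 0.473, 0.294 to 0.756). Of 26 natural intraepithelial genes 6 were higher, among them Klra7 at 26.8 and 5.96 CPM (4.49, 3.45 to 5.93) and Klra6 at 11.7 and 4.47, and 3 were lower, with the chemokine Xcl1 at 62.5 and 156 CPM (0.401, 0.371 to 0.433). Of 25 conventional genes 4 were higher (Lef1, Tnfrsf4, Ccr7 and Ly6a), and of 15 cytotoxic genes 2 (Ccl3 and Ccl4). Of 17 homing and 10 cell cycle genes 0 were called. Markers of other cells also differed: the stromal genes Dcn, at 6.47 and 64.5 CPM, and Col1a1, at 3.27 and 35.3, were lower, Muc2 was lower (ratio 0.427), Fabp1 was higher (1.86), and the B cell gene Ms4a1 had 82 and 0 UMIs. The cell numbers differed too. CD3-positive B cell-like cells numbered 22 in the model and 0 in the control library, and CD3-positive fibroblast-like cells 1 and 12. The lymphocyte subcluster led by Klra7, Klra6 and Klra1 had 146 model and 19 control cells. Fewer cells of a type and less RNA per cell cannot be told apart in such sums alone, and the part of these cells was not tested.

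For each gene, the 3 genes whose levels followed it most closely were found over 23 points, each a subcluster of at least 20 cells in 1 library, among 12930 genes. Trac was followed by Rpa2 (Pearson r 0.95), the kinase gene Fyn (0.93) and Selenow (0.93), Trbc1 by Cyrib (0.87), Gm15501 and Mtrr, and Trbc2 by Rpl27 (0.87), Abracl and Scand1. Trdc was nearest to Capn3 (0.86), the gamma segment Trgv2 (0.85) and Cd7 (0.83), Trgc1 to Fcer1g (0.90), Arap3 (0.88) and Ptpn6 (0.82), and Trgc2 to Itgae (0.98), Tnfsf10 (0.97) and Cd8a (0.96). Trgv7 was nearest to Itgae (0.90), Tnfsf10 (0.90) and Rcn1 (0.90). Trdv4, with few UMIs, was nearest to Trpm5 (0.78). Among the 8 genes themselves, Trgc2 and Trgv7 had r of 0.92, Trdc and Trgc2 0.80, Trdc and Trgv7 0.78, Trdc and Trgc1 0.73, Trac and Trgc2 0.78 and Trac and Trgc1 -0.02. The points share 2 libraries and the same clustering, so these are descriptions of order.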

How the data were processed

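The deposited files hold raw UMI counts per gene and barcode, made by the authors with Cell Ranger, version 7.0.1 per the file headers and 4.0 per the submitters' processing notes, which name GRCm39. Neither the kit nor intron counting is stated in the sources used here. Barcodes under 500 UMIs or 200 genes, or above 25% mitochondrial UMIs, were dropped, and no doublet caller was run. Clusters were made with scanpy 1.11.5 (2000 variable genes without T cell receptor, immunoglobulin, mitochondrial and ribosomal protein genes, 30 components, 15 neighbours, Leiden resolution 1, igraph 0.11.9) and named from marker lists. A lymphocyte cluster that also passed 3 markers of an epithelial type stayed unnamed. The sum of CD3 UMIs set the gate. Shares have Clopper-Pearson intervals, ratios of shares log intervals (Katz), and ratios of counts exact binomial intervals, all at 95% and for counting error only. Genes named are the 8 members, genes of fixed lists past 1.5-fold between libraries or 2-fold in both libraries between classes, with at least 50 UMIs, and the 3 nearest by correlation of log2(CPM + 1). Cd7, Itgae, Fcer1g, Cd8a and Gzma are also given, chosen after their values were seen. The members and lists were chosen with earlier results of these data known, and the class with both kinds of chain, the bins by Trdc and the segment shares were added after the values were seen. A fold against 0 UMIs uses a floor of 3. The ratio step was tested on simulated data. The type 17 list between the libraries is not reported here.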

Additional observations from a re-analysis of the deposited data

Results flagged for a closer look

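Trgv7 stood on opposite sides of 1 in the 2 libraries when cells with delta and no alpha or beta were set against cells with alpha or beta and no delta: the ratio was 5.67 in the model library (15 and 29 UMIs) and 0.335 in the control library (1 and 23 UMIs). In the larger class with both kinds of chain it was higher in both libraries, at 6.87 and 3.93. Sox4, a transcription factor gene of the natural intraepithelial list, stood on opposite sides of 1 in both comparisons. Its ratio was 2.09 in the model and 0.359 in the control library for delta without alpha or beta. For both kinds of chain it was 1.58 and 0.259. Its levels in the second comparison were 42.1 and 26.7 CPM in the model library and 19.8 and 76.3 in the control library. The difference between the libraries was not tested for either gene, since each group has 1 library.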

How the results depend on the processing

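Values here are ratios of the model to the control share. The CD3-positive share (1.327) was 1.593 with a gate of 2 UMIs, 1.183 with a mitochondrial limit of 10%, 1.868 without cells with 3 or more UMIs of other-cell markers, and 1.738 when only T cell-like and NK or innate lymphoid-like clusters counted. Cells with alpha or beta and no delta (1.375) were at 1.27 with the 10% limit, 1.239 thinned to 1000 UMIs, 1.5 with a chain called at 2 UMIs, 1.249 without other-marker cells and 1.24 in those clusters alone. Cells with both kinds of chain (1.108) were at 0.9351 with the gate of 2, 0.8743 with the 10% limit, 1.017 with at least 1000 UMIs, 1.02 thinned, 0.8945 without other-marker cells and 0.8737 in those clusters. Cells with delta and no alpha or beta (0.74) were at 1.402 with a chain called at 2 UMIs. Cells with none of these chains (0.5645) were at 0.424 with the gate of 2, 0.8021 with the 10% limit, 0.6386 with no limit, 0.7566 thinned, 0.7092 without other-marker cells and 0.7261 in those clusters. The cause of these shifts was not tested. Of the 7 genes with at least 50 UMIs, 0 passed 1.5-fold under each of the 9 alternatives. Genes higher with delta numbered 125 for delta without alpha or beta and 19 for delta with alpha or beta, a class chosen after seeing the data. Genes lower numbered 254 and 180. No paired analysis was possible, since each group has 1 library and the labels name no pairs. With 1 library a group, differences between mice or preparations cannot be told apart from those between groups.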
